A study of Arabidopsis thaliana with 12 samples.

Results

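The UGT genes encode UDP-glycosyltransferases, enzymes that move a sugar from a UDP-sugar donor onto a small molecule. The members described here are the 51 genes of the deposited table of 23853 genes whose symbol is UGT followed by a family number, a letter and a gene number, with UGT74B1, UGT74D1, UGT78D1, UGT78D2 and UGT84B1 left out. They fall into 13 families, of which family 71 has 10 genes, family 73 has 9, family 76 has 7, family 85 has 6 and family 84 has 5. Apart from the 5 genes left out, members were taken by their names, and 71 further rows annotated as UDP-glycosyltransferase superfamily proteins under other symbols are not members.

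RNA was sequenced from roots of Arabidopsis thaliana seedlings to ask whether the SUMO E3 ligase SIZ1 takes part in auxin signaling. The 4 groups of 3 libraries were the wild type Col-0 on MS medium, Col-0 with 0.5 µM of the auxin IAA for 3 h, and the mutant siz1-2 under the same conditions. The labels give 7 days of growth at 22 °C on half-strength MS for all groups. The methods and the labels differ in the age of the seedlings, which is therefore uncertain. All siz1-2 libraries come from 1 mutant allele in which SIZ1 transcript was still present, and nothing in the labels says how many seedlings or independent cultures stand behind a library, so the p-values measure only the spread between these libraries.

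In plants, family 1 UDP-glycosyltransferases attach glucose and other sugars to hormones, phenylpropanoids, defence compounds and foreign chemicals. A sugar usually makes the acceptor more soluble, less active and ready for storage in the vacuole, and hormone glucosides or glucose esters can often be opened again by other enzymes. The number in a UGT name marks the sequence family, and related UGT genes commonly stand side by side in the genome, but relatives can accept quite different molecules. UGT80B1 is the exception among the members by its acceptor class, since it glucosylates membrane sterols.

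The sequences just upstream of 5 members are shown because these genes were higher in siz1-2 on both media and hold a motif searched for. UGT74E2 was also higher with IAA in both genotypes. Each window holds the 250 bases before the annotated gene start in RefSeq TAIR10.1, found by the locus identifier of the table, since no genome build is named for the deposited values. The windows are chr1:1704839-1705088, minus strand for UGT74E2, chr1:2223375-2223624, plus strand for UGT71C5, chr2:6758180-6758429, plus strand for UGT73B5, chr4:8850517-8850766, minus strand for UGT84A1 and chr3:7595430-7595679, plus strand for UGT84A2. Capitals mark the auxin response element letters TGTCTC, which read GAGACA on the opposite strand, and the TGACG core bound by TGA-type bZIP factors, which reads CGTCA there.
UGT74E2: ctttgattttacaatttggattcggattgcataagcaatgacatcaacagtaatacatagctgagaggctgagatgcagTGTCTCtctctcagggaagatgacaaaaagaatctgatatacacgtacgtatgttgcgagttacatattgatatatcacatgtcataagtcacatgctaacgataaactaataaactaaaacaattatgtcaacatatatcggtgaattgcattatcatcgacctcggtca
UGT71C5: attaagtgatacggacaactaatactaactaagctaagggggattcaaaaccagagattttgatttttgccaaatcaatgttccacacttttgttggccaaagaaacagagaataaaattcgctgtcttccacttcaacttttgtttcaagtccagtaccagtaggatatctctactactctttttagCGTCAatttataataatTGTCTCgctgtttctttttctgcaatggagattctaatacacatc
UGT73B5: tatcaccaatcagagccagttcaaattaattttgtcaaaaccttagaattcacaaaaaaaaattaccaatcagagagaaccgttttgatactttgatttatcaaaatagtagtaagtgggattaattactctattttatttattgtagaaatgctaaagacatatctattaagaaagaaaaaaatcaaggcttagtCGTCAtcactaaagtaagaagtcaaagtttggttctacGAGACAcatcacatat
UGT84A1: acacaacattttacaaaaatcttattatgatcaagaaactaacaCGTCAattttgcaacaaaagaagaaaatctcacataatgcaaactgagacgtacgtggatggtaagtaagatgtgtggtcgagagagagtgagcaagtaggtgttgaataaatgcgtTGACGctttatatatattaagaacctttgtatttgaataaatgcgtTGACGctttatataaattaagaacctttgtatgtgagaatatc
UGT84A2: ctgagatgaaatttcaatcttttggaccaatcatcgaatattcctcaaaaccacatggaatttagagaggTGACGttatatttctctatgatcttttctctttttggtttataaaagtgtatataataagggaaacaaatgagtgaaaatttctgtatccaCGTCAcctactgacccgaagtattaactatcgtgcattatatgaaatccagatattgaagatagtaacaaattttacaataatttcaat

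The letters TGTCTC stood in 10.9% of the 27443 windows of the same length and in 8 of the 51 UGT windows, the variant TGTCGG, read as CCGACA on the opposite strand, in 4.16% and in 1 UGT window, and TGACG in 18.6% and in 12 UGT windows, with both strands searched, and none of these motifs contains another. Of the 8 UGT genes higher in siz1-2 on MS, 5 had TGACG, among them UGT84A1 with 3 matches and UGT84A2 with 2. Of the 6 UGT genes that rose with IAA, 1 had TGTCTC, UGT74E2, and 0 had TGACG. The auxin response element letters TGTCTC also stood in 3 of the 8 genes higher in siz1-2 on MS, UGT71C5, UGT73B5 and UGT74E2, and in 0 of those that fell with IAA. TGACG also stood in 4 of the 9 genes that fell with IAA in Col-0 and in 3 of the 7 that fell in siz1-2. UGT73B4 is also among the 5 genes with TGACG that were higher in siz1-2, but its window lies wholly within the annotated UGT73B5 gene and is not printed. A match of letters is a description of the window only.

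The table holds FPKM (fragments per length of transcript, scaled to the mapped fragments of a library), a unit that allows levels of different genes to be compared per length. FPKM summed to 581254 to 636309 per library, and depth relative to Col-0 MS replicate 1, read from the steps between low values, was 0.896 to 1.03, while absolute depth is unknown. SIZ1 was at 21.5 to 28.0 FPKM in the Col-0 libraries and at 12.8 to 16.6 FPKM in siz1-2. All 12 root markers examined were present in every library, for example the endodermal gene CASP1 at 137 to 244 FPKM. Some varied more widely, such as COBL9 at 3.25 to 26.8 FPKM. The median of the root markers was lowest in Col-0 IAA replicate 1, at 6.47 FPKM, against 9.94 to 16.3 FPKM in the other libraries. The median of 31 green tissue markers was 39.6 FPKM in Col-0 IAA replicate 1 and 34.6 FPKM in siz1-2 IAA replicate 2, against 4.96 to 13.4 FPKM in the other 10 libraries. More than 1 log2 unit separated Col-0 IAA replicate 1 from its group in 1848 genes, while the other libraries had 54 to 536 such genes. The counts of UGT genes passing at an adjusted p under 0.05 were therefore taken again without both libraries, and single genes that then lost or gained a call are named beside their results. The part of green tissue in these results was not tested.

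Roots contained transcripts of most UGT genes, as of most genes in the table, and a few UGT genes made up much of the UGT total. Of the 51 members, 40 reached 1 FPKM in at least 3 libraries and entered the test, and 11 did not. The highest mean levels belonged to UGT72E2, UGT76B1, UGT72E1, UGT85A2, UGT71C1 and UGT74F2, in this order. UGT72E2 and UGT72E1 glucosylate monolignols and their aldehydes, UGT76B1 acts on isoleucic acid, salicylate and N-hydroxypipecolate, and UGT74F2 makes the glucose ester of salicylate. UGT72E2 reached 109.9 ± 16.8 FPKM in Col-0 on MS, 121 ± 18.2 in Col-0 with IAA, 139 ± 29.8 in siz1-2 on MS and 133 ± 6.92 in siz1-2 with IAA (mean ± SD, n = 3 libraries, here and below). It passed the test in no comparison. UGT71C1 was at 43.0 ± 7.10 to 63.9 ± 16.7 FPKM in the 4 groups and passed in none either. Next to UGT72E2 in the order, UGT76B1 and UGT72E1 overlapped with it and with each other over the 12 libraries.

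**Figure D1:**
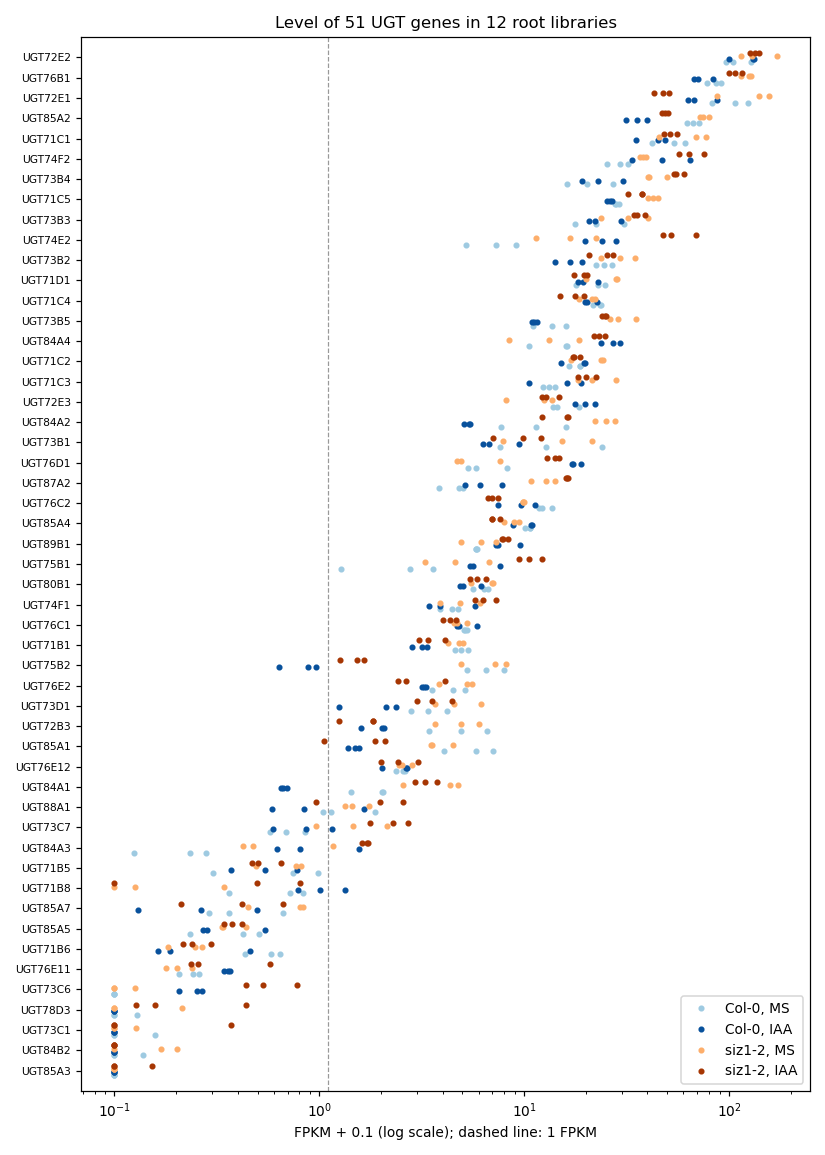
FPKM + 0.1 on a log axis of the 51 UGT genes, ordered by mean level, in each of the 12 libraries, with colours for the 4 groups set slightly apart in height and a dashed line at 1 FPKM. UGT72E2 stands highest, and 11 genes at the bottom did not reach 1 FPKM in 3 libraries.

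Summed by family, the 4 genes of family 72 gave 235 ± 33.2 FPKM in Col-0 on MS, 216 ± 29.9 in Col-0 with IAA, 283 ± 67.6 in siz1-2 on MS and 195 ± 4.12 in siz1-2 with IAA. The sum of the 3 genes of family 74 was 40.2 ± 5.56 FPKM in Col-0 on MS, 76.6 ± 20.9 in Col-0 with IAA, 59.6 ± 5.72 in siz1-2 on MS and 128 ± 12.4 in siz1-2 with IAA. Family 85 went from 83.5 ± 5.20 to 47.5 ± 3.36 FPKM with IAA in Col-0 and from 88.7 ± 3.91 to 58.2 ± 1.37 in siz1-2. Family 73 was at 101 ± 25.8 and 86.0 ± 13.7 FPKM in Col-0 on MS and with IAA, and at 156 ± 30.6 and 157 ± 11.7 in siz1-2. Family 84 was at 27.6 ± 7.33 and 33.3 ± 2.88 FPKM in Col-0 and at 42.6 ± 9.10 and 42.8 ± 3.93 in siz1-2. The libraries of the groups compared did not overlap between MS and IAA in either genotype for families 74, 85, 87 and 89. In siz1-2 alone they were also clear of each other for families 71 and 72. Such separation was common with 3 libraries a group, as 20 of the 40 tested UGT genes showed it in each genotype. Families 87 and 89 hold 1 gene each, UGT87A2 and UGT89B1, and neither gene passed limma's test for IAA. For UGT87A2 the adjusted p was 0.094 (Col-0) and 0.15 (siz1-2), and for UGT89B1 it was 0.080 (Col-0) and 0.11 (siz1-2). Over all 51 genes the sum was 792 ± 85.4 FPKM in Col-0 on MS, 746 ± 61.5 in Col-0 with IAA, 1019 ± 148 in siz1-2 on MS and 929 ± 11.2 in siz1-2 with IAA. Sums over a chosen list were not tested.

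With IAA, UGT genes moved in both directions, and the same 6 genes rose in both genotypes, UGT84A3 in Col-0 only with the libraries rich in green markers kept. In Col-0, 15 of the 40 tested UGT genes passed limma's test at an adjusted p under 0.05 (6 higher and 9 lower), where 17.3% of all 18743 genes tested did, 9.09% higher and 8.21% lower. In siz1-2, 13 of 40 passed (6 higher and 7 lower), against 17.9% of all genes, 9.81% higher and 8.06% lower. Genes that also changed by at least 1 on the log2(FPKM + 0.5) scale, called DEGs below, numbered 9 UGT genes in Col-0 (6.46% of all genes) and 8 in siz1-2 (5.85%). The median log2 change of the 40 genes was −0.11 in Col-0 and −0.18 in siz1-2, against −0.02 and 0.10 over all genes. In bulk roots, fewer cells of a type and less RNA per cell cannot be told apart. With each library centred on its median, the siz1-2 calls became 4 higher and 8 lower, and with median-of-ratios factors 5 higher and 9 lower. Without siz1-2 IAA replicate 3 only 7 UGT genes passed in siz1-2, and without siz1-2 MS replicate 1 only 8. With the 2 libraries rich in green markers left out together, 12 passed in Col-0 (5 higher and 7 lower) and 14 in siz1-2 (6 higher and 8 lower). UGT84A3 (adjusted p = 0.062), UGT73B2 (0.086) and UGT73D1 (0.12) then missed the threshold in Col-0, so that 5 of the 6 genes still rose in both genotypes, and UGT71B1 passed in siz1-2 (0.038, limma).

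**Figure D2:**
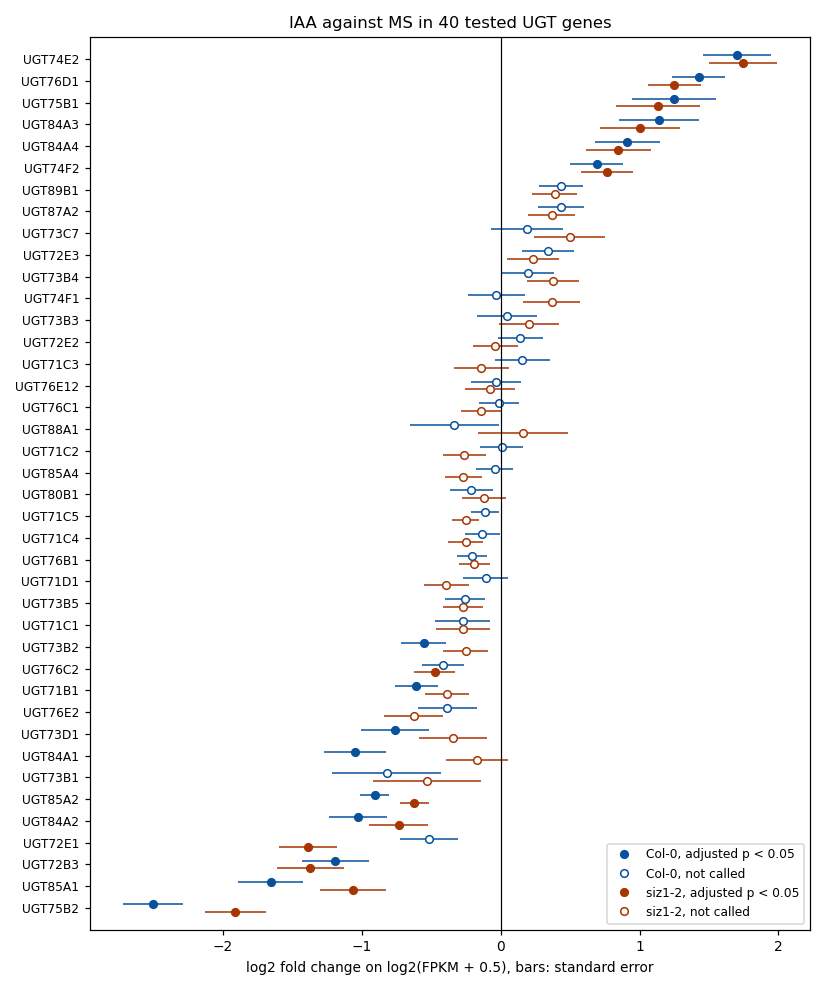
Log2 fold change of IAA against MS on the log2(FPKM + 0.5) scale for the 40 tested UGT genes in Col-0 (blue) and siz1-2 (brown), with standard errors as bars and filled points where limma's adjusted p was under 0.05. UGT74E2 had the largest rise at 1.70 in Col-0 and 1.75 in siz1-2, and UGT75B2 the largest fall at −2.50 and −1.91.

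Among the genes that rose, UGT74E2, which glucosylates the auxin precursor indole-3-butyric acid and is known for its part in water stress responses, had the largest change on the log2(FPKM + 0.5) scale, which shrinks the changes of scarce genes. By the ratio of mean FPKM, UGT84A3 changed more in Col-0 (7.99 against 3.37 for UGT74E2) and less in siz1-2 (2.69 against 3.35). The level of UGT74E2 was 8.99, 7.20 and 5.12 FPKM in the 3 libraries of Col-0 on MS and 19.7, 28.1 and 24.0 FPKM with IAA. For siz1-2 the levels were 16.7, 22.4 and 11.4 FPKM on MS and 69.1, 52.0 and 47.6 FPKM with IAA. All IAA libraries were above all MS libraries of the same genotype, and the siz1-2 MS libraries overlapped with those of Col-0 with IAA. The log2 fold change of UGT74E2 was 1.70 in Col-0 (standard error, SE, 0.25, limma adjusted p = 0.00032) and 1.75 in siz1-2 (SE 0.25, limma adjusted p = 0.00029).

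UGT76D1, an enzyme that glycosylates dihydroxybenzoic acids derived from salicylate, was at 5.24, 8.17 and 5.75 FPKM in Col-0 on MS and at 17.2, 16.9 and 18.9 FPKM with IAA. Roots of siz1-2 had 4.58, 7.55 and 4.82 FPKM on MS and at 14.6, 14.0 and 12.8 FPKM with IAA. The groups did not overlap, and replicate 2 was the highest MS library in both genotypes. It rose by 1.42 on the log2 scale in Col-0 (SE 0.19, limma adjusted p = 0.00018) and by 1.25 in siz1-2 (SE 0.19, limma adjusted p = 0.00056).

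UGT75B1, which binds the callose synthase complex at the cell plate and accepts IAA in vitro, was at 3.50, 2.67 and 1.18 FPKM in Col-0 on MS and at 5.51, 7.55 and 5.37 FPKM with IAA. The mutant libraries were at 4.51, 6.62 and 3.18 FPKM on MS and at 12.2, 9.37 and 10.5 FPKM with IAA. All IAA libraries again stood above the MS libraries of their genotype. The log2 fold change was 1.25 in Col-0 (SE 0.30, limma adjusted p = 0.012) and 1.13 in siz1-2 (SE 0.30, limma adjusted p = 0.02). The call did not hold without Col-0 IAA replicate 2 (adjusted p = 0.051) in Col-0, nor in siz1-2 without IAA replicate 1 or 3 or MS replicate 1 or 3 (adjusted p of 0.059 to 0.081, limma). The annotated UGT75B1 gene lies wholly within a long non-coding RNA on the opposite strand, and since strandedness of the kit is not stated, reads from both strands cannot be told apart here.

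The other 3 genes that rose were UGT74F2, UGT84A3 and UGT84A4. UGT74F2 was at 31.9, 29.3 and 25.4 FPKM in Col-0 on MS and at 33.7, 64.5 and 47.0 FPKM with IAA, so that the lowest IAA library, replicate 1, was close to the highest MS library. In siz1-2 it was at 36.5, 39.3 and 37.9 FPKM on MS and at 63.6, 56.8 and 75.3 FPKM with IAA. It rose by 0.69 (limma adjusted p = 0.024) and by 0.77 (limma adjusted p = 0.014) on the log2 scale. UGT84A3 and UGT84A4 belong to the hydroxycinnamate glucosyltransferases, which make glucose esters of cinnamic acids. UGT84A4 had means of 14.2 ± 3.17 and 26.7 ± 2.76 FPKM in Col-0 on MS and with IAA, and of 13.3 ± 5.03 and 23.2 ± 1.47 FPKM in siz1-2. Its log2 fold change was 0.91 in Col-0 and 0.85 in siz1-2 (SE 0.23, limma adjusted p = 0.016 and 0.023).

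UGT84A3 was scarce, at 0.134, 0.179 and 0.0241 FPKM in Col-0 on MS and 1.47, 0.702 and 0.523 FPKM with IAA. Roots of siz1-2 had 0.325, 1.06 and 0.373 FPKM on MS and 1.62, 1.51 and 1.61 FPKM with IAA. It entered the test with 5 libraries at or above 1 FPKM, of which 4 were IAA libraries, so its place in the count depends on the response itself. The log2 change of UGT84A3 was 1.14 in Col-0 and 1.00 in siz1-2 (SE 0.29, limma adjusted p = 0.015 and 0.029).

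These 3 calls rested on few libraries. In Col-0, UGT74F2 missed the threshold without IAA replicate 2, MS replicate 2 or MS replicate 3 (adjusted p of 0.066 to 0.080), UGT84A4 without IAA replicate 2 or MS replicate 3 (0.057 to 0.066) and UGT84A3 without MS replicate 3 (0.053, limma). In siz1-2, UGT74F2 missed it without IAA replicate 3 (adjusted p = 0.070), and UGT84A3 and UGT84A4 without any 1 of the IAA libraries or of MS replicates 1 and 3 (0.056 to 0.12, limma). UGT84A3 also missed it in Col-0 under quantile normalization and without the 2 libraries rich in green markers, where its log2 change was 0.86 (limma adjusted p = 0.062), and in siz1-2 under quantile normalization, median centring, median-of-ratios factors and a pseudocount of 0.1, and UGT84A4 under median centring.

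UGT75B2, a close relative of UGT75B1, fell the most. The level of UGT75B2 was 7.90, 6.40 and 5.15 FPKM in Col-0 on MS and 0.860, 0.781 and 0.536 FPKM with IAA, a ratio of means of 8.94. The mutant libraries were at 7.14, 8.08 and 4.82 FPKM on MS and 1.16, 1.42 and 1.56 FPKM with IAA, a ratio of means of 4.84. Every IAA library was below every MS library, and all siz1-2 IAA libraries were above all Col-0 IAA libraries. On the log2 scale UGT75B2 changed by −2.50 in Col-0 (SE 0.22, limma adjusted p = 3.9e-06) and −1.91 in siz1-2 (SE 0.22, limma adjusted p = 4.8e-05).

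**Figure D3:**
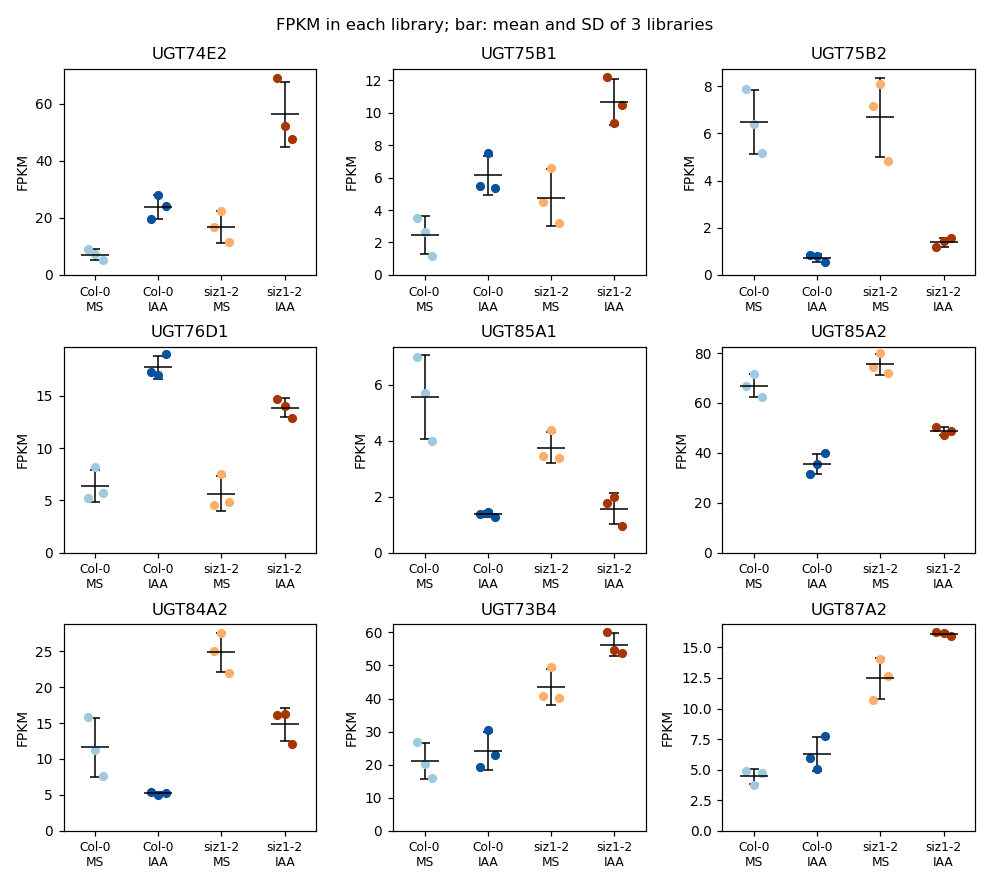
FPKM of 9 UGT genes in each of the 12 libraries, with the mean and SD of the 3 libraries of a group as bars and a linear axis from 0 for each gene. UGT74E2, UGT75B1 and UGT76D1 were higher with IAA in both genotypes, UGT75B2, UGT85A1, UGT85A2 and UGT84A2 were lower with IAA, and UGT73B4, UGT84A2 and UGT87A2 were higher in siz1-2 on both media.

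UGT85A1, which makes the O-glucoside of the cytokinin trans-zeatin, was at 6.98, 5.70 and 3.98 FPKM in Col-0 on MS and at 1.39, 1.47 and 1.28 FPKM with IAA. For siz1-2 the levels were 3.45, 4.38 and 3.40 FPKM on MS and at 1.78, 1.98 and 0.957 FPKM with IAA. The IAA libraries lay below the MS libraries in both genotypes. Its log2 fold change was −1.66 in Col-0 (SE 0.24, limma adjusted p = 0.00027) and −1.06 in siz1-2 (SE 0.24, limma adjusted p = 0.007). Its neighbour UGT85A2, the most abundant gene among those that fell in both genotypes, had a Col-0 mean of 66.9 ± 4.52 FPKM on MS and 35.6 ± 4.16 with IAA, and a siz1-2 mean of 75.4 ± 4.29 on MS and 48.9 ± 1.65 with IAA. The log2 fold change of UGT85A2 was −0.91 in Col-0 and −0.62 in siz1-2 (SE 0.11, limma adjusted p = 5.4e-05 and 0.0013).

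UGT84A2, which makes the glucose ester of sinapic acid, was at 15.8, 11.3 and 7.65 FPKM in Col-0 on MS and at 5.33, 5.01 and 5.28 FPKM with IAA. In siz1-2 it was at 25.0, 27.6 and 22.0 FPKM on MS and at 16.1, 16.2 and 12.1 FPKM with IAA. The IAA libraries were lower in both genotypes, and every siz1-2 IAA library was above every Col-0 IAA library. Its log2 fold change was −1.03 in Col-0 (SE 0.21, limma adjusted p = 0.0043) and −0.73 in siz1-2 (SE 0.21, limma adjusted p = 0.029), and the latter call was lost without siz1-2 IAA replicate 1 or 3 or MS replicate 1 or 2 (adjusted p of 0.056 to 0.13). UGT72B3 was the fifth gene to fall in both genotypes, from 4.88 ± 1.59 FPKM on MS to 1.80 ± 0.257 with IAA in Col-0 and from 4.79 ± 1.18 FPKM on MS to 1.53 ± 0.338 with IAA in siz1-2. Its log2 fold change was −1.19 and −1.37 (SE 0.24, limma adjusted p = 0.0042 and 0.0017).

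UGT71B1, UGT73B2, UGT73D1 and UGT84A1 passed in Col-0 alone, and UGT72E1 and UGT76C2 passed in siz1-2 alone. None of these differences between the genotypes passed its own test, given below. UGT71B1, UGT73B2 and UGT73D1 fell in Col-0, with log2 fold changes of −0.61, −0.55 and −0.76 (limma adjusted p = 0.017, 0.032 and 0.0497). Their changes in siz1-2 were −0.38, −0.25 and −0.34. The Col-0 call was lost for UGT71B1 without MS replicate 1 or 2 (adjusted p of 0.051 and 0.080) and for UGT73B2 without IAA replicate 1 or 2 or MS replicate 1 or 2 (0.067 to 0.11). For UGT73D1 it was lost without any of 8 libraries, the siz1-2 ones other than MS replicate 2 and Col-0 IAA replicate 1 and MS replicates 1 and 2 (0.052 to 0.17, limma). UGT76C2, a cytokinin N-glucosyltransferase, went from 9.81 ± 0.0718 to 6.92 ± 0.401 FPKM in siz1-2 (log2 change −0.47 with a limma adjusted p = 0.044) and from 12.5 ± 0.996 to 9.38 ± 1.96 FPKM in Col-0 (log2 change −0.41 with a limma adjusted p = 0.076). The siz1-2 call of UGT76C2 was lost without any 1 of the 6 siz1-2 libraries or the 3 Col-0 MS libraries (adjusted p of 0.054 to 0.14).

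By acceptor, 2 of the 5 genes on the auxin list were tested, UGT74E2 and UGT75B1, and both rose with IAA in both genotypes. The list does not hold every gene that may accept auxin, so their rise does not stand for auxin glucosylation as a whole. UGT75B2, the close relative of UGT75B1, was not on that list and fell the most of all tested members in both genotypes. Of 3 tested cytokinin genes, 0 rose and UGT85A1 fell in Col-0, while UGT85A1 and UGT76C2 fell in siz1-2. UGT76C1 of the same list was at 5.05 ± 0.0863 and 5.02 ± 0.648 FPKM in Col-0 on MS and with IAA. Of 6 tested genes for salicylate and related benzoates, UGT74F2 and UGT76D1 rose in both genotypes and 0 fell. Of 7 tested monolignol and hydroxycinnamate genes, UGT84A3 and UGT84A4 rose in both genotypes, UGT84A1 and UGT84A2 fell in Col-0, and UGT72E1 and UGT84A2 fell in siz1-2. The abscisate gene UGT71C5 and the sterol gene UGT80B1 passed in neither genotype. These lists were drawn up with earlier results known and their counts are descriptions.

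For the difference of the IAA response between the genotypes, 0 of 40 UGT genes passed limma's test at an adjusted p under 0.05, and only 0.016% of all genes did. At an unadjusted p under 0.05 there were 2 UGT genes, against 11.3% of all genes, and 0 passed at the adjusted threshold under every alternative run. The 5 genes with the smallest p were UGT72E1, UGT84A1, UGT75B2, UGT85A2 and UGT85A1. UGT72E1 was at 124, 107 and 82.5 FPKM in Col-0 on MS, at 87.8, 67.4 and 62.8 FPKM with IAA, at 141, 156 and 87.1 FPKM in siz1-2 on MS and at 51.2, 47.6 and 43.0 FPKM with IAA. The siz1-2 groups were clear of each other, while the highest IAA library of Col-0, replicate 1, was above the lowest MS library. UGT72E1 had a log2 fold change of −0.51 in Col-0 (adjusted p = 0.11) and −1.39 in siz1-2 (adjusted p = 0.00048), a difference of −0.87 (SE 0.30, limma unadjusted p = 0.011 and adjusted p = 0.41).

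UGT84A1, a hydroxycinnamate glucosyltransferase, was at 1.95, 1.93 and 1.32 FPKM in Col-0 on MS and at 0.566, 0.596 and 0.547 FPKM with IAA. The mutant libraries were at 4.68, 4.24 and 2.45 FPKM on MS and at 3.17, 3.67 and 2.83 FPKM with IAA. The Col-0 groups were clear of each other and the siz1-2 groups overlapped. Its log2 fold change was −1.05 in Col-0 (adjusted p = 0.0053) and −0.17 in siz1-2 (adjusted p = 0.64), a difference of 0.88 (SE 0.32, limma unadjusted p = 0.015 and adjusted p = 0.42). For UGT75B2, UGT85A2 and UGT85A1 the difference was 0.59, 0.29 and 0.59 on the log2 scale (limma adjusted p = 0.46, 0.46 and 0.47). The spread of 3 libraries a group thus left the size of these differences poorly fixed, with standard errors of 0.31, 0.15 and 0.33.

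Between the genotypes, the UGT genes that passed were nearly all higher in siz1-2. On MS, 8 of 40 passed limma's test, all 8 higher, against 5.3% of all genes in either direction, 2.75% higher and 2.55% lower. With IAA, 11 passed, 10 higher and 1 lower, against 9.12% of all genes, 3.91% higher and 5.21% lower. DEGs numbered 5 on MS (2.25% of all genes) and 7 with IAA (3.22%), all of them higher in siz1-2. The same 8 genes passed in both comparisons: UGT71C5, UGT73B4, UGT73B5, UGT74E2, UGT76B1, UGT84A1, UGT84A2 and UGT87A2. The means compared come from different libraries, but both comparisons share an estimate of the spread from all 12 libraries. The median log2 difference of the 40 genes was 0.22 on MS and 0.39 with IAA, against −0.08 and 0.03 over all genes. With each library centred on its median, the median over all genes became 0.04 on MS. Without siz1-2 MS replicate 1 only 5 genes passed on MS, and without siz1-2 IAA replicate 3 only 7 with IAA. With the 2 libraries rich in green markers left out together, 9 genes passed on MS (9 higher) and 8 with IAA (7 higher and 1 lower). With IAA the calls of UGT71C5 (adjusted p = 0.072), UGT73C7 (0.051), UGT85A2 (0.062) and UGT85A4 (0.081) were then lost and UGT76C2 passed as lower (0.037), and on MS UGT71C3 passed (0.021, limma).

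**Figure D4:**
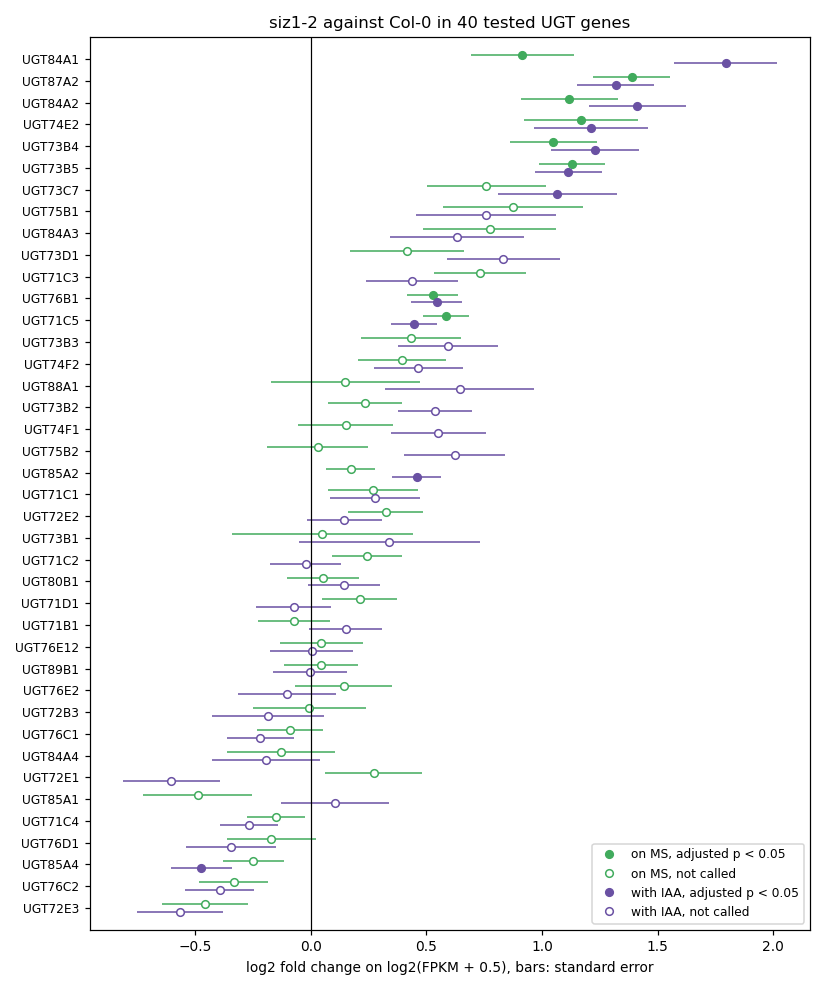
Log2 difference of siz1-2 from Col-0 on the log2(FPKM + 0.5) scale for the 40 tested UGT genes on MS (green) and with IAA (purple), with standard errors as bars and filled points where limma's adjusted p was under 0.05. The filled points lie to the right of 0 except that of UGT85A4 with IAA, at −0.47.

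UGT87A2, a gene known for its part in the timing of flowering, was at 4.93, 3.76 and 4.69 FPKM in Col-0 on MS and at 10.7, 14.1 and 12.6 FPKM in siz1-2. With IAA it was at 5.99, 5.04 and 7.74 FPKM in Col-0 and at 16.2, 16.2 and 16.0 FPKM in siz1-2. All 6 siz1-2 libraries were above all 6 Col-0 libraries. The log2 difference was 1.39 on MS (SE 0.17, limma adjusted p = 0.00038) and 1.32 with IAA (SE 0.17, limma adjusted p = 0.00042).

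UGT73B4 and UGT73B5 are neighbours, and UGT73B4 is known to conjugate the explosive TNT while UGT73B5 takes part in resistance to Pseudomonas. UGT73B4 was at 27.0, 20.3 and 16.1 FPKM in Col-0 on MS and at 40.6, 49.6 and 40.0 FPKM in siz1-2. With IAA it was at 19.2, 30.4 and 22.9 FPKM in Col-0 and at 60.2, 54.8 and 53.9 FPKM in siz1-2. Both comparisons were free of overlap, with log2 differences of 1.05 on MS and 1.23 with IAA (SE 0.19, limma adjusted p = 0.0056 and 0.0015). UGT73B5 was at 15.9, 13.7 and 10.9 FPKM in Col-0 on MS against 28.6, 35.0 and 26.3 FPKM in siz1-2, and at 10.9, 11.4 and 11.0 FPKM against 24.9, 24.0 and 24.8 FPKM with IAA. Its log2 difference was 1.13 on MS and 1.11 with IAA (SE 0.14, limma adjusted p = 0.00051 and 0.00046). In RefSeq the 1866 bases of the UGT73B4 gene lie wholly within the UGT73B5 gene on the same strand, and their coding sequences are 89.3% identical, so the single values of both are uncertain. Their relative UGT73B3, also tied to resistance to Pseudomonas, had log2 differences of 0.43 and 0.59 that did not pass (limma adjusted p = 0.31 and 0.11).

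Of the genes named above for IAA, UGT84A2, UGT84A1 and UGT74E2 also differed between the genotypes. For UGT84A2 the log2 difference was 1.12 on MS and 1.41 with IAA (SE 0.21, limma adjusted p = 0.0075 and 0.0012). For UGT84A1 it was 0.91 and 1.79 (SE 0.22, limma adjusted p = 0.031 and 0.00037), with siz1-2 libraries above all Col-0 libraries on both media. For UGT74E2 it was 1.17 and 1.21 (SE 0.25, limma adjusted p = 0.014 and 0.0082). On MS the call was lost for UGT74E2 without Col-0 replicate 3 or siz1-2 replicate 1 or 2 (adjusted p of 0.054 to 0.064), and for UGT84A1 without any 1 Col-0 replicate or siz1-2 replicate 1 or 2 (0.062 to 0.14, limma).

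UGT76B1 and UGT71C5 showed smaller differences at high levels. UGT76B1 was at 77.8, 86.1 and 91.5 FPKM in Col-0 on MS and at 125, 128 and 115 FPKM in siz1-2, and with IAA at 67.4, 83.1 and 70.9 FPKM against 99.9, 107 and 116 FPKM. UGT71C5, which glucosylates abscisic acid, was at 27.9, 29.1 and 27.6 FPKM in Col-0 on MS and at 42.5, 40.1 and 45.1 FPKM in siz1-2, and with IAA at 25.2, 26.9 and 26.0 FPKM against 32.2, 37.4 and 37.4 FPKM. For both genes every siz1-2 library was above every Col-0 library. The log2 difference of UGT76B1 was 0.53 on MS and 0.55 with IAA (SE 0.11, limma adjusted p = 0.013 and 0.0078), and that of UGT71C5 was 0.59 and 0.44 (SE 0.10, limma adjusted p = 0.0037 and 0.014). The UGT76B1 call on MS was lost without Col-0 or siz1-2 MS replicate 1 or 2 (adjusted p of 0.051 to 0.060), and the UGT71C5 call with IAA without siz1-2 IAA replicate 2 or 3 (0.066 and 0.072) or without both libraries rich in green markers (0.072).

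With IAA, UGT73C7, UGT85A2 and UGT85A4 joined them. UGT73C7 had means of 0.773 ± 0.281 (Col-0) and 2.15 ± 0.469 FPKM (siz1-2), and entered the test with 6 libraries at or above 1 FPKM, of which 5 were siz1-2 libraries. The place of UGT73C7 in the counts of calls and DEGs thus depends on the difference itself. Its log2 difference was 1.06 (limma adjusted p = 0.02), lost without siz1-2 IAA replicate 1 or 3 (0.092 and 0.075) or without both libraries rich in green markers (0.051). UGT85A2 was 0.46 higher (limma adjusted p = 0.017), lost without siz1-2 IAA replicate 1 or 3 (0.074 and 0.064) or without both green-rich libraries, where the difference was 0.40 (0.062). UGT85A4, the 1 gene that was lower, had means of 10.1 ± 1.19 (Col-0) and 7.11 ± 0.391 FPKM (siz1-2) (log2 difference −0.47 with a limma adjusted p = 0.04). That call was lost without any of 8 libraries, namely Col-0 IAA replicates 1 and 2, Col-0 MS replicates 1 and 2, siz1-2 MS replicate 1 and the 3 siz1-2 IAA libraries (adjusted p of 0.052 to 0.14), and under every rescaling of the libraries. Of the 1855 bases of the UGT85A4 gene, 1853 also lie within an annotated long non-coding RNA of the opposite strand.

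Neighbouring UGT genes moved the same way in some arrays and in opposite ways in others. Members with at most 10 protein-coding genes between them formed 13 arrays, of which 10 had at least 2 tested members. With IAA, 2 arrays in each genotype held at least 2 members that passed in the same direction, UGT85A2 with UGT85A1 and UGT84A3 with UGT84A4. The calls of UGT84A3 and UGT84A4 rested on few libraries, as given above. How often neighbours among all genes passed together was not counted. Members that passed in opposite directions stood in 2 arrays in Col-0, 1 of them the UGT84A array again, and in 1 array in siz1-2. UGT75B2 and UGT75B1, separated by 2 genes on chromosome 1 and 75.2% identical in coding sequence, moved apart in both genotypes (−2.50 and 1.25 in Col-0, −1.91 and 1.13 in siz1-2 on the log2 scale). On chromosome 4, UGT84A1 fell in Col-0 while UGT84A3, directly beside it, and UGT84A4, the gene after that, rose. UGT84A3 and UGT84A4 are 79.7% identical to each other in coding sequence. In the chromosome 1 array of UGT85A genes, UGT85A2 and UGT85A1 fell in both genotypes and the members UGT85A7, UGT85A5 and UGT85A3 were too low to test. Between the genotypes, 0 arrays held opposite calls, and UGT73B5 with UGT73B4 was the 1 array with at least 2 members called the same way. As given above, UGT73B4 lies within the UGT73B5 gene on the same strand, so these calls may not be separate. In the chromosome 2 array of UGT71D1, UGT71C2 and UGT71C1, 0 members passed in any comparison.

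**Figure D5:**
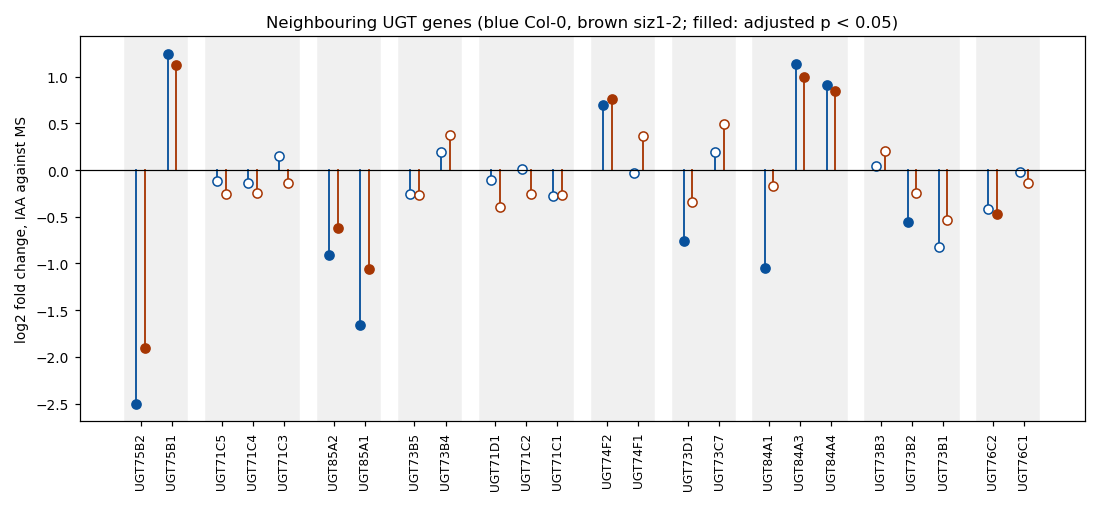
Log2 fold change of IAA against MS for the tested members of the 10 arrays, each array a grey band with its genes in chromosomal order, in Col-0 (blue) and siz1-2 (brown), with filled points where limma's adjusted p was under 0.05. UGT75B2 and UGT75B1 point in opposite directions, as do UGT84A1 and its neighbours UGT84A3 and UGT84A4 in Col-0.

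Of the 40 tested UGT genes, 24 passed in at least 1 comparison and 16 in none. The 16 included 5 of the 7 tested genes of family 71 (UGT71C1, UGT71C2, UGT71C3, UGT71C4 and UGT71D1), the monolignol genes UGT72E2 and UGT72E3, the salicylate glucosyltransferase UGT74F1, the cytokinin gene UGT76C1 and UGT80B1. UGT71C3, which glucosylates methyl salicylate, came closest among them, at 12.2, 14.1 and 13.2 FPKM in Col-0 on MS and 21.4, 18.2 and 28.0 FPKM in siz1-2. These groups did not overlap, and the log2 difference was 0.73 (SE 0.20, limma adjusted p = 0.052). UGT73B1 varied widely within a group, at 23.9, 12.8 and 7.49 FPKM in Col-0 on MS, and its change with IAA of −0.82 had a standard error of 0.39.

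Genes for the enzymes that make UDP-sugar donors, which UGT enzymes use, passed with IAA about as often as all genes did (17.3% in Col-0 and 17.9% in siz1-2). Of 27 tested donor genes, 0 rose and 5 fell in Col-0 (UGP1, UGP2, UXS3, UGE1 and UGE5), and 1 rose (SUS3) and 3 fell (UGE1, UGE4 and UGE5) in siz1-2. The log2 fold change of the UDP-glucose pyrophosphorylase gene UGP2 in Col-0 was −0.66 (limma adjusted p = 0.00094). The sucrose synthase gene SUS3 rose by 0.81 in siz1-2 (limma adjusted p = 0.005). In siz1-2 against Col-0, 2 donor genes were higher and 3 lower on MS, and 4 higher and 2 lower with IAA, where 5.3% and 9.12% of all genes passed, with SUS3 higher and UGE1 and UGE3 lower on both media.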

How the data were processed

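RNA of 12 root libraries was sequenced, and the authors deposited FPKM per gene, made on the platform of their sequencing provider. No source used here names the aligner, genome build, annotation, filters or strandedness. Libraries were grouped by title and treatment label, although the protocol text describes IAA treatment for each of the 12, MS libraries too.

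The values were put on the log2(FPKM + 0.5) scale, and 18743 genes that reached 1 FPKM in 3 or more libraries were kept. This scale understates the change of low genes. A model of 4 group means was fitted with limma 3.58.1 in R 4.3.3 (trend of the variance, 2-sided, Benjamini-Hochberg over all genes tested) and was tested on simulated data. A call needed an adjusted p under 0.05, and a DEG also a change of 1 or more in size on the log2 scale. No count test was run, because absolute depth is unknown.

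Members and lists were chosen with earlier results of these data known. Genes were named by rule: UGT DEGs with at least 5 FPKM in the higher group, the 5 smallest interaction p-values, the 6 highest means, UGT85A1 and the members of lists by acceptor. Genes called outside this rule (UGT71B1, UGT72B3, UGT73B2, UGT73C7, UGT73D1, UGT85A4) and UGT73B1 were named after their values were seen.

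Locus identifiers of all 23853 genes were found in RefSeq TAIR10.1, whose GeneIDs equal those of the table. Overlaps, coding identity (Biopython 1.88) and upstream windows come from it. Tables were handled in Python 3.11.15 with pandas 2.3.3. Same-numbered libraries deviated together in all 3 pairs only between Col-0 and siz1-2 on MS (correlations of 0.119, 0.203 and 0.337 over genes), where the numbers meet the rule for pairs. The p-values printed for that comparison are from the model of group means without a block, and the fit with the replicate block was an alternative.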

Additional observations from a re-analysis of the deposited data

How the results depend on the processing

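The counts of UGT genes called were taken with a pseudocount of 0.1 or 1, without a filter or at 5 FPKM, with 3 rescalings, with robust estimation in limma, in the compared groups alone, with a replicate block, at other thresholds and without single libraries or the 2 rich in green markers. Of 130 results (these counts and the sum over all UGT genes), 116 stayed within 1.5 times the main count or 1 SD, and 0 of the single values reversed. With a filter of 5 FPKM, 9 of 31 tested genes passed with IAA in Col-0. With the DEG rule the counts were 9 (IAA in Col-0), 8 (IAA in siz1-2), 5 (genotypes on MS) and 7 (genotypes with IAA), and at an adjusted p under 0.01 they were 8, 7, 5 and 7. With only the groups compared, 7 passed between the genotypes with IAA. Leaving out 1 library gave 11 to 15 genes for IAA in Col-0, 7 to 15 for IAA in siz1-2, 5 to 9 for the genotypes on MS, 7 to 14 for the genotypes with IAA and 0 for the difference of responses. Of 47 calls, 27 were kept without every single library in turn.

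With the replicate block the counts were 15 for IAA in Col-0, 12 in siz1-2, 0 for the difference of responses, 8 between the genotypes on MS, where the same 8 genes passed, and 12 with IAA. UGT73D1 in Col-0, UGT76C2 in siz1-2 and UGT85A4 with IAA lost their calls under the block. Same-numbered libraries did not deviate together in the other comparisons (correlations of −0.139 to −0.009 between MS and IAA in Col-0, 0.013 to 0.282 in siz1-2 and −0.279 to 0.057 between the genotypes with IAA). The spread of 3 libraries and the unknown depth limit what can be said of genes under 1 FPKM.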

Other observations

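The 11 UGT genes below the filter were UGT71B5, UGT71B6, UGT71B8, UGT73C1, UGT73C6, UGT76E11, UGT78D3, UGT84B2, UGT85A3, UGT85A5 and UGT85A7. UGT73C6, which glycosylates flavonols and brassinosteroids, was listed at 0 in the 3 libraries of Col-0 on MS and at 0.153, 0.166 and 0.107 FPKM with IAA. For siz1-2 the levels were listed at 0.0265, 0 and 0 FPKM on MS and at 0.429, 0.680 and 0.338 FPKM with IAA. UGT71B8, an abscisate glucosyltransferase in vitro, was at 1.24, 0.906 and 0.686 FPKM in Col-0 with IAA and at 0.623, 0.733 and 0.262 FPKM on MS. Roots of siz1-2 had 0.0262, 0.242 and 0 FPKM on MS and at 0.399, 0.701 and 0 FPKM with IAA. UGT85A3 was listed at 0 in 11 libraries, and UGT73C1 and UGT84B2 in 9. These values were chosen after they were seen and were not tested.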
